A study of Mus musculus with 194 samples.

Results

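The kainate receptor genes Grik1 to Grik5 encode the subunits of 1 class of ionotropic glutamate receptor, and they were followed here as sites of transposon insertion in mouse brain. The RefSeq gene table of GRCm38.p6 lists 21627 protein-coding genes on the autosomes and X, and these are 5 of them. The members were chosen by name, and each was measured as a locus, the gene body with 10 kb on each side. Its level is the number of insertions in the locus per 1000000 insertions of the same animal's table, abbreviated IPM.

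Kainate receptors are glutamate-gated cation channels built from 4 subunits. The products of Grik1, Grik2 and Grik3 can form channels by themselves, whereas those of Grik4 and Grik5 bind kainate with high affinity and need a partner from the first set. In cortex and hippocampus these receptors adjust transmitter release and excitability, the Grik1 product is known for its part in GABAergic interneurons, and the auxiliary proteins Neto1 and Neto2 alter channel kinetics.

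The insertions were recorded by calling cards, in which a transposase leaves a marked transposon in the DNA at a nearby TTAA. A free piggyBac transposase is known to insert preferentially at active enhancers, and fusion to a transcription factor is used to draw insertions toward that factor's sites. Insertion is therefore a record of where the transposase was, not of how much messenger RNA a gene made. The labels do not name the transposase of any group.

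All brain groups received adeno-associated virus on postnatal day 0 to 1. C57bl6J mice (2 animals) were given viruses that do not need Cre. Syn1Cre (6 animals) and GFAPCre (6) carry Cre lines named for the Syn1 promoter, used to reach neurons, and the GFAP promoter, used to reach astrocytes, and Syn1CreNeg (6) and GFAPCreNeg (6) are their groups without Cre. A construct labelled Frontflip was used with GFAPCre (3) and GFAPCreNeg (3) animals. Syn1Cre mice with SP1 in their sample names, after a factor that binds GC boxes, were taken at P28 (4 animals) and at P10 (3), read here as postnatal days 28 and 10. Rbp4Cre_TRAP (4 animals) comes from whole forebrain, from a Cre line used for layer 5 projection neurons and a purification of RNA from its cells. BrokenHeart (3) was read from cortical DNA with a pool of 20 barcoded transposons, whereas the other libraries were read from RNA of self-reporting transposons. Apart from BrokenHeart, Rbp4Cre_TRAP and N2a, the libraries came from cortices divided into 10 pieces. N2a is a mouse neuroblastoma line with 1 combined table. Ages other than P10 and P28 are not given in the labels, nor are the viral promoters. Cre activity marks the cells that a promoter reached at any time after injection, which need not be 1 cell type.

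Depth ran from 443158 to 1364948 insertions per animal in Syn1Cre, 600443 to 1505413 in GFAPCre, 97519 to 556145 in Syn1CreNeg, 208057 to 597230 in GFAPCreNeg and 1545951 to 2186743 in C57bl6J. It was 108965 to 577609 in SP1 at P28, 86842 to 95331 at P10, 24408 to 57014 in Rbp4Cre_TRAP, 160631 to 205559 in Frontflip_GFAPCre, 42511 to 98197 in BrokenHeart and 806653 in N2a. Frontflip_GFAPCreNeg held only 2341 to 9601. Interneuron marker loci (11 genes, among them Gad1, Gad2 and Lhx6) together held 1537 to 1885 IPM in Syn1Cre and 334 to 457 in GFAPCre. Astrocyte marker loci (11 genes, among them Slc1a2, Aqp4 and Gfap) held 899 to 1250 in 5 of the Syn1Cre animals and 2800 in replicate 5, against 1190 to 2312 in GFAPCre and 3044 to 3926 in Syn1CreNeg. The astrocyte list was thus higher in each Syn1CreNeg animal than in any GFAPCre animal, which goes against reading GFAPCre as the group richest in astrocyte signal. In GFAPCreNeg, replicate 6 stood apart with 4340 for the astrocyte list and the lowest depth of its group.

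4 of the 5 members have an entry in the RefSeq promoter table (GRCm38.p6), which gives 250 bases before and 50 after the listed gene start. They are shown because the SP1 groups bear on them: SP1 binds the GC box, searched here as GGGCGG on both strands, and insertion needs TTAA. Neither motif overlaps the other. Each sequence reads 5′ to 3′ along the gene. Capitals mark GC boxes, written GGGCGG or, on the opposite strand, CCGCCC, and in Grik2 the TTAA.

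Grik2, chr10:49788705-49789004, minus strand: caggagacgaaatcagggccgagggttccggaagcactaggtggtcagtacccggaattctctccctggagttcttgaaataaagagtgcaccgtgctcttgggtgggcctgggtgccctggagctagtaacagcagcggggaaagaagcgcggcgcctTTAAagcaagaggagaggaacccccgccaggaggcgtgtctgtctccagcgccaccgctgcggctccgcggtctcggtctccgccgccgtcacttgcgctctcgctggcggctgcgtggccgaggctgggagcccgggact
Grik3, chr4:125490446-125490745, plus strand: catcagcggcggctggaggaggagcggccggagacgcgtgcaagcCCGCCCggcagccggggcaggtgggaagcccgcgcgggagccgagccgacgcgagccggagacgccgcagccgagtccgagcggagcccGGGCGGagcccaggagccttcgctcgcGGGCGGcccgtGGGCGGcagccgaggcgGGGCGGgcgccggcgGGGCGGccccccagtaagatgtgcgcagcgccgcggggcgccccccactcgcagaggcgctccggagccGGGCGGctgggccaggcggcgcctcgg
Grik4, chr9:42944322-42944621, minus strand: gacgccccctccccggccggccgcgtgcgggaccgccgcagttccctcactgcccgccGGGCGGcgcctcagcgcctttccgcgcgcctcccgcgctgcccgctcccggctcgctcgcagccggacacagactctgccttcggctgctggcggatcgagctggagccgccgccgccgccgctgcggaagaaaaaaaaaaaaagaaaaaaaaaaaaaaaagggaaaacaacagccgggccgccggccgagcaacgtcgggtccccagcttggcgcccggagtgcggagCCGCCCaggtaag
Grik5, chr7:25072320-25072619, minus strand: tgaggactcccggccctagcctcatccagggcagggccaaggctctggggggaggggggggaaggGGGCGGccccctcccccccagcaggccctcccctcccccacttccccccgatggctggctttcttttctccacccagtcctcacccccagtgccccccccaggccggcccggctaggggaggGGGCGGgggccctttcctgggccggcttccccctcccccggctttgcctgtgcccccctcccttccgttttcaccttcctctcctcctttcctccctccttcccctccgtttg

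Grik3 held 7 GC boxes in its 300 bases, Grik4 and Grik5 held 2 each and Grik2 held 0. Of the 32851 promoters in the table, 35.7% held at least 1 GC box, 19.5% held 2 or more and 10.7% held 3 or more. TTAA occurred in 52.4% of the promoters, but among these 4 only in Grik2, where 1 TTAA at position 49788842 took 79 insertions from 31 tables. The promoters of Grik3, Grik4 and Grik5 held no TTAA and took 0 insertions, so any insertion near those starts lies outside the sequences printed.

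Grik1, which encodes a channel-forming subunit (gene 14805, chromosome 16, 87895901 to 88290863), had its highest levels in Syn1Cre and C57bl6J and low levels in both GFAP groups. Syn1Cre animals ranged from 231 to 360 IPM with a median of 277 (mean 283.9 ± 48.7, SD, n = 6). The 2 C57bl6J animals had 229 and 220.0. GFAPCre animals ranged from 79.7 to 125 with a median of 109 (106.3 ± 18.2, n = 6).

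Every Syn1Cre and C57bl6J animal thus lay above every GFAPCre animal. Syn1CreNeg ranged from 46.5 to 137 with a median of 84.0, and GFAPCreNeg from 72.1 to 128 with a median of 99.1, both overlapping GFAPCre. SP1 at P28 gave 116, 119, 158 and 149, and SP1 at P10 gave 127, 134 and 157, between the GFAPCre and the Syn1Cre animals except for the overlap with the top of GFAPCre. The Rbp4Cre_TRAP animals had 87.7, 139, 49.9 and 81.9, below all Syn1Cre animals. BrokenHeart had 240.2, 244 and 118, and Frontflip_GFAPCre had 131, 68.5 and 55.1. In the order of group means, 2 of 11 neighbouring pairs of groups did not overlap for Grik1, and N2a was at the bottom with 19 insertions, or 23.6 IPM (95% exact interval 14.2 to 36.8, counting error only).

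Grik2, which encodes the main channel-forming subunit of hippocampal kainate receptors (gene 14806, chromosome 10, 49093680 to 49790161), was the richest of the 5 loci in each of the 10 brain groups with more than 10000 insertions per animal and was spread more evenly over the Cre groups than Grik1. GFAPCre ranged from 778 to 979 with a median of 884 (882.3 ± 85.9, n = 6), and GFAPCreNeg from 726 to 913 with a median of 875. Syn1Cre ranged from 654 to 843 with a median of 760 (758.9 ± 74.7, n = 6), and Syn1CreNeg from 744 to 857 with a median of 773. C57bl6J had 781 and 852.

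These 5 groups overlapped throughout. The SP1 animals lay below all of them, with 418, 367, 401 and 497 at P28 and 576, 389.9 and 409 at P10. Rbp4Cre_TRAP had 667, 675, 749 and 860.4, and Frontflip_GFAPCre had 710.3, 766 and 526. BrokenHeart was lowest among the brain groups, with 326, 326 and 353. N2a had 46 insertions, or 57.03 IPM (41.8 to 76.1).

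Grik3, which encodes a channel-forming subunit of low glutamate affinity (gene 14807, chromosome 4, 125490259 to 125714173), was higher with Cre than without it. Syn1Cre ranged from 104 to 154 with a median of 139 (134.9 ± 18.9, n = 6). GFAPCre ranged from 82.4 to 101 with a median of 93.0 (92.7 ± 8.56, n = 6). Syn1CreNeg ranged from 27.9 to 113 with a median of 56.6, and GFAPCreNeg from 48.1 to 73.9 with a median of 59.4. The GFAPCre animals lay below all Syn1Cre animals and above all GFAPCreNeg animals, whereas 1 Syn1CreNeg animal reached into the Syn1Cre range. SP1 at P28 gave 129, 147, 188 and 142, and at P10 104, 134 and 136, overlapping Syn1Cre. C57bl6J had 102 and 91.9, Rbp4Cre_TRAP 87.7, 99.3, 74.9 and 81.9, Frontflip_GFAPCre 82.7, 106 and 48.9, and BrokenHeart 85.8, 91.7 and 141. In N2a, Grik3 was the richest member with 63 insertions, 78.1 IPM (60.0 to 99.9), within the range of the brain groups.

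Grik4, which encodes a high-affinity subunit (gene 110637, chromosome 9, 42518182 to 42945000), varied least among the Cre groups. GFAPCre ranged from 148 to 163 with a median of 156 (155.6 ± 5.61, n = 6), and Syn1Cre from 124 to 169 with a median of 149.8. Without Cre the values were lower: Syn1CreNeg ranged from 92.4 to 123 with a median of 105, and GFAPCreNeg from 48.1 to 141 with a median of 119.8. Neither Cre-negative group overlapped its own Cre group, although the GFAPCreNeg range reached into Syn1Cre. C57bl6J had 131 and 153, SP1 at P28 94.9, 147, 91.1 and 171, and SP1 at P10 104, 156 and 94.4. Rbp4Cre_TRAP spread from 52.6 through 99.8 and 164 to 238, Frontflip_GFAPCre had 87.6, 125 and 110.1, and BrokenHeart was highest with 309, 173 and 212. N2a held 2 insertions in Grik4, or 2.48 IPM (0.300 to 8.96), below every brain group other than Frontflip_GFAPCreNeg.

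Grik5, which encodes the other high-affinity subunit (gene 14809, chromosome 7, 25009849 to 25075694), was set apart by the SP1 groups. SP1 at P28 gave 198, 211, 219 and 121 IPM (187.3 ± 44.9, n = 4), and SP1 at P10 gave 138, 245 and 304 (229.1 ± 84.1, n = 3). Syn1Cre ranged from 33.7 to 51.8 with a median of 38.8 (40.3 ± 6.80, n = 6). Every SP1 animal lay above every animal of the other groups with more than 10000 insertions. GFAPCre ranged from 31.0 to 39.6 with a median of 36.0, Syn1CreNeg from 27.9 to 50.4 with a median of 37.2, and GFAPCreNeg from 19.7 to 55.3 with a median of 34.8. C57bl6J had 36.9 and 29.7, BrokenHeart 51.5, 50.9 and 70.6, Frontflip_GFAPCre 63.2, 43.6 and 24.5, and N2a 29 insertions or 36.0 IPM (24.1 to 51.6). Rbp4Cre_TRAP had 35.1, 59.6, 0 and 81.9, where the 0 of 40066 insertions allows up to 74.9 IPM. In Frontflip_GFAPCreNeg Grik1 to Grik5 held 3, 3, 0, 1 and 1 insertions over 3 animals, too few to place that group in any order. For Grik3 its 0 insertions allow up to 312, 1282 and 530 IPM in the 3 animals.

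**Figure D1:**
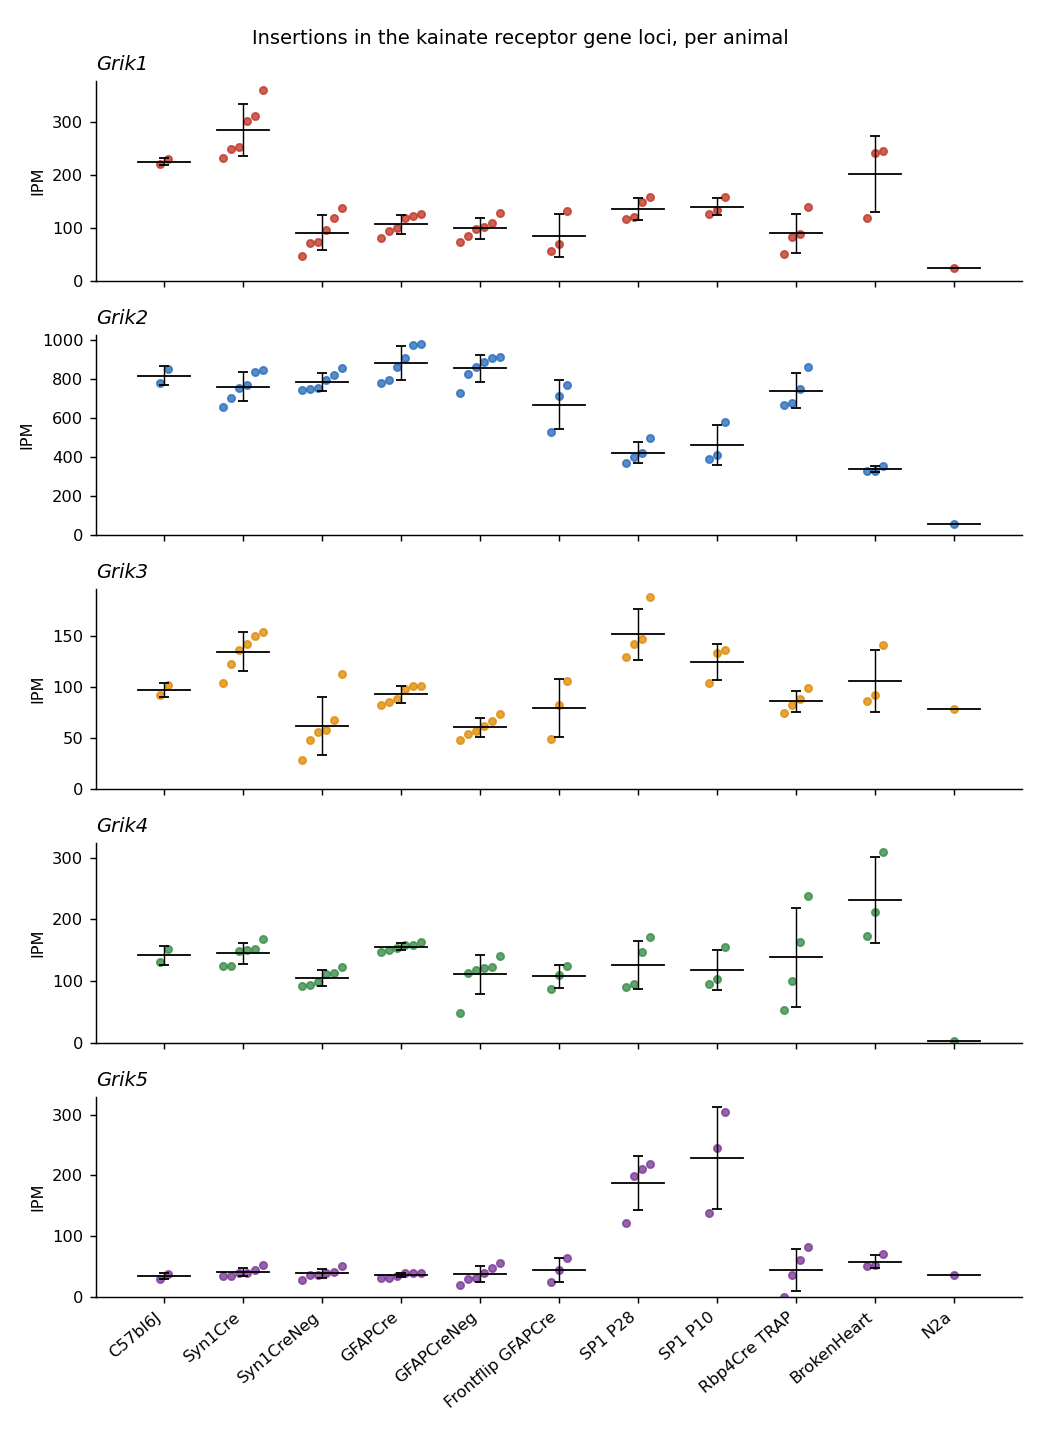
IPM (y axis, linear, from 0) in each kainate receptor gene locus, for 10 brain groups and N2a (x axis), with 1 point per animal, a horizontal line at the group mean and bars of 1 SD. Grik1 is highest in Syn1Cre (231 to 360), Grik5 in SP1 at P28 (121 to 219) and P10 (138 to 304); Frontflip_GFAPCreNeg is not drawn because its tables hold 2341 to 9601 insertions.

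The loci differ in length, so levels were also set side by side per kb. In Syn1Cre, Grik2 held 1.06 IPM per kb, Grik1 0.684, Grik3 0.553, Grik5 0.469 and Grik4 0.324. In GFAPCre, Grik2 held 1.23 per kb, Grik5 0.413, Grik3 0.380, Grik4 0.348 and Grik1 0.256, so that Grik1 ranked next after Grik2 in the one group and last in the other. In SP1 at P28 the order was led by Grik5 with 2.18 per kb, followed by Grik3 with 0.622, Grik2 with 0.587, Grik1 with 0.327 and Grik4 with 0.282. Among all loci with insertions in the group, Grik2 stood at the 89.3rd percentile of this density in Syn1Cre and the 92.8th in GFAPCre, but at the 56.7th in SP1 at P28 and the 14.1st in N2a. Grik5 stood at the 62.4th percentile in Syn1Cre and the 89.4th in SP1 at P28. As a share of the insertions in the 5 loci, Grik2 had 69.2% ± 1.79 in GFAPCre (SD, n = 6) and 55.7% ± 2.87 in Syn1Cre (n = 6), where Grik1 had 20.7% ± 2.24 against 8.31% ± 0.882. These shares describe the same animals and carry no test.

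Loci were compared between groups with edgeR's quasi-likelihood test, fitted on all loci with enough insertions and adjusted by the Benjamini-Hochberg method over all of them, with 0.05 as the threshold. The 12 comparisons share groups (Syn1Cre enters 6 and GFAPCre 4), so their results are not independent of each other. By the labels, Syn1Cre animals share no sequencing pool with animals of another group, and the same holds for C57bl6J and for BrokenHeart. Frontflip_GFAPCre shares no pool with GFAPCre, nor does Syn1CreNeg with GFAPCreNeg. In every comparison between groups without a shared pool, group and pool therefore cannot be told apart. Each group is a bulk sample, in which fewer cells of a type and fewer insertions per cell cannot be told apart. Where the animals of 2 groups are said not to overlap, this describes the member only. The share of all loci without overlap was not counted.

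Between Syn1Cre and GFAPCre, the insertions of 2 members differed. Grik1 was 2.61-fold higher in Syn1Cre than in GFAPCre (log2 fold change 1.38, SE 0.13, adjusted p = 1.83e-07), and Grik3 was 1.42-fold higher (0.51, SE 0.10, adjusted p = 0.00822). Neither overlapped between the groups. Of the 11640 loci tested, 2.19% passed in either direction and 1.25% were higher, while 2 of 5 members were higher and 0 lower. Grik2 had a log2 fold change of -0.26 (adjusted p = 0.191), Grik4 -0.14 (0.491) and Grik5 0.13 (0.671). The median over all loci was 0.0029.

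The Grik3 call was lost when each position was counted once per animal (0.39, adjusted p = 0.0627), and without Syn1Cre replicate 5, whose astrocyte list was high, 849 loci passed in place of 255. Grik1 held between 1.29 and 1.45 whichever animal was left out. With only Syn1Cre replicates 1 to 3, Grik2 was called lower (-0.46, adjusted p = 0.00291). In the same comparison 11 of 11 interneuron genes were higher in Syn1Cre, with a median of 2.27. Of 8 excitatory neuron genes 2 were higher (median 0.18), and of 10 tested astrocyte genes 0 passed (median -0.33). The part of these markers in the Grik1 and Grik3 differences was not tested.

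Along Grik1 the difference was spread over the tested windows but was steepest at the upper end of the gene. Of 9 windows of 50 kb in that locus 6 had enough insertions to be tested, and all 6 were higher in Syn1Cre. Of 22468 windows tested, 2.84% passed, 1.54% higher and 1.3% lower. A window can reach the minimum count through the higher group alone, so the share of tested windows that were higher carries no support. The window from 88250001 to 88300000 had 122 ± 23.3 IPM in Syn1Cre (SD, n = 6) and 31.9 ± 8.93 in GFAPCre (n = 6), a difference of 1.93 in log2 (adjusted p = 4.52e-08). At the other end, the window from 87900001 to 87950000 had 23.5 ± 3.33 and 13.1 ± 4.38 (0.87, adjusted p = 0.0216). In Grik3, 2 of 3 testable windows were higher, 125450001 to 125500000 (0.88, adjusted p = 0.00147), which holds the listed gene start, and 125500001 to 125550000 (0.69, adjusted p = 0.00817). None of 14 windows in Grik2, 6 in Grik4 or 2 in Grik5 passed.

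**Figure D2:**
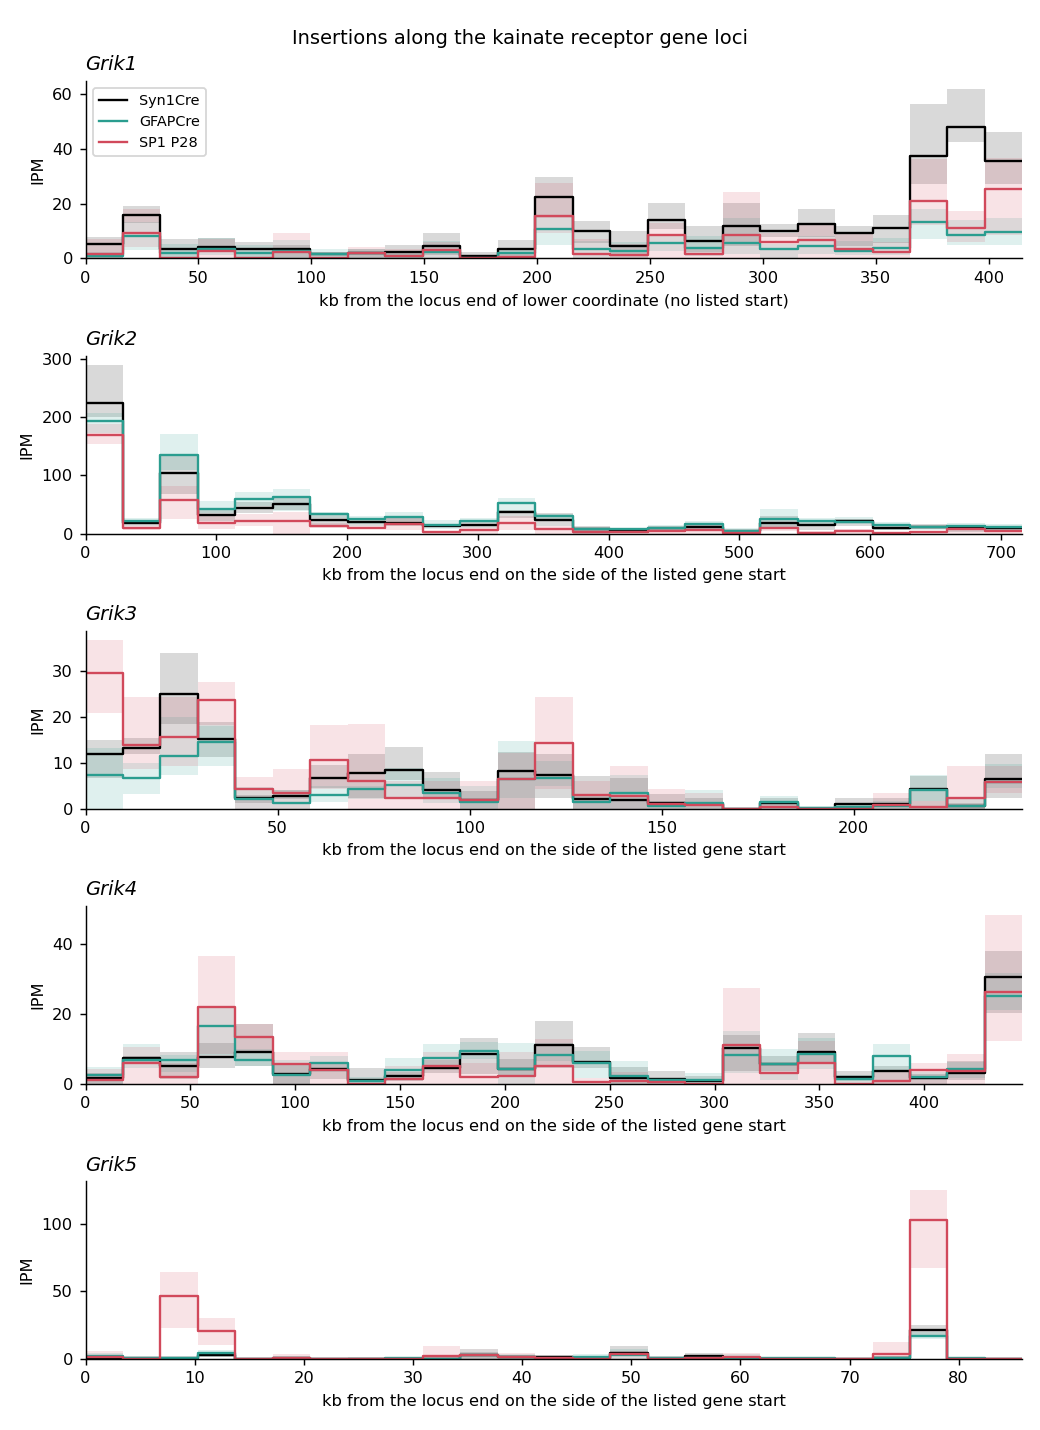
IPM (y axis, linear, from 0) in 25 equal bins along each locus for Syn1Cre, GFAPCre and SP1 at P28, with lines at group means and shading from the lowest to the highest animal; the x axis is kb from the locus end on the side of the listed gene start, or for Grik1, which has no listed start, from the end of lower coordinate. Syn1Cre is above GFAPCre at the upper end of Grik1, where the last 50 kb window held 122 against 31.9, and SP1 stands out in both flanks of Grik5.

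Against animals without Cre, 3 members were higher in Syn1Cre, where 30.7% of 8728 loci passed in either direction and 13.4% were higher. Grik1 was higher by 1.54 on the log2 scale (SE 0.18, adjusted p = 1.66e-06), Grik3 by 1.22 (SE 0.17, adjusted p = 9.99e-06) and Grik4 by 0.43 (SE 0.13, adjusted p = 0.016). Grik2 (-0.06, adjusted p = 0.724) and Grik5 (0.05, 0.901) did not pass. Among 50 kb windows, of which 30.3% of 14950 passed, 4 of 4 tested in Grik1, 3 of 3 in Grik3 and 1 of 3 in Grik4 were higher, and 0 of 11 in Grik2. Those tested were 4 of 9 windows in Grik1, 3 of 6 in Grik3, 3 of 9 in Grik4 and 11 of 15 in Grik2. Here too a window can reach the minimum count through Syn1Cre alone, so these shares carry no support. The Grik4 call was lost with distinct positions (adjusted p = 0.0685), with the body alone (0.0759) and without Syn1CreNeg replicate 5 (0.0676). In this comparison 11 of 11 interneuron genes and 4 of 7 tested excitatory neuron genes (median 0.35) were higher, and 9 of 10 tested astrocyte genes were lower. The part of these markers in the members' differences was not tested.

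In GFAPCre against GFAPCreNeg, 8.26% of 9240 loci passed, 2.1% as higher and 6.16% as lower, and 2 members were higher. Grik3 was higher by 0.59 on the log2 scale (SE 0.13, adjusted p = 0.00464) and Grik4 by 0.42 (SE 0.12, adjusted p = 0.0303), and neither overlapped between the groups. Grik1 had 0.08 (adjusted p = 0.787), Grik2 0.04 (0.824) and Grik5 -0.11 (0.786). The labels place animals of both groups in shared sequencing pools. Over those animals alone, with the pool as a block, Grik3 kept its size but not its call (0.70, adjusted p = 0.107), and Grik4 had 0.41 (adjusted p = 0.372). The Grik4 call was also lost with distinct positions (0.0615) and without any 1 of GFAPCre replicates 2 (0.0661), 4 (0.0516) and 6 (0.0518) or GFAPCreNeg replicates 2 (0.0664), 3 (0.067) and 4 (0.0643). Here 4 of 10 tested astrocyte markers were lower (median -0.50), 2 of 7 excitatory neuron markers were higher (median 0.29) and 0 of 6 interneuron markers passed. The summed astrocyte level was 1190 to 2312 IPM in GFAPCre and 2147 to 4340 in GFAPCreNeg, and the excitatory level was 1738 to 2302 and 1230 to 2011. The part of these markers in the Grik3 and Grik4 differences was not tested. Between the 2 Cre-negative groups 0.0426% of 7038 loci passed (3 loci, 0.0284% higher, against 803 at an unadjusted p under 0.05 and 10 by DESeq2), and no member did, with log2 fold changes from -0.15 to -0.02.

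C57bl6J, whose viruses do not need Cre, differed from GFAPCre at Grik1. Against GFAPCre, Grik1 was 2.23-fold higher (1.16, SE 0.13, adjusted p = 6.36e-07) and the other members were between -0.04 and 0.15 with adjusted p of 0.509 or more, where 12.6% of 13418 loci passed, 6.69% higher and 5.95% lower. With total insertions as the scale, 33.6% of the passing loci were higher in place of 52.9%. Cell type markers moved in the same comparison: 11 of 11 interneuron markers were higher (median 2.26; 1383 to 1398 IPM summed in C57bl6J and 334 to 457 in GFAPCre). Excitatory neuron markers were higher in 4 of 8 genes (2306 to 2503 against 1738 to 2302), and astrocyte markers were lower in 8 of 11 (804 to 862 against 1190 to 2312). Their part in the Grik1 difference was not tested. Group and sequencing pool cannot be told apart in this comparison. Against Syn1Cre, where 0.803% of 14449 loci passed, 0.782% higher and 0.0208% lower, no member did. Grik1 had -0.22 (95% interval of the fit -0.56 to 0.13) and Grik3 -0.35 (-0.65 to -0.06, adjusted p = 0.274), and for each of these the 2 C57bl6J animals lay below all 6 Syn1Cre animals. With total scaling 68.5% of the passing loci were higher there in place of 97.4%.

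The genes that work with kainate receptors (12 partners, such as Neto1, Neto2 and the scaffold Dlg4) and the other ionotropic glutamate receptor genes (13) give the setting. In Syn1Cre against GFAPCre, 1 of 9 tested partners was higher, Neto1 (0.47, adjusted p = 0.0231), and 0 were lower, with a median of 0.12. Of 11 other receptor genes 0 were higher and 1 was lower. Against Syn1CreNeg, Neto2 (0.83) and Neto1 (0.70) were higher and the scaffold gene Cask lower (-0.48) among 9 partners, with a median of 0.25. There 3 of 10 other receptor genes were higher, Gria4 (0.75), Gria1 (0.60) and Grin2b (0.32), and 2 were lower, among them Gria2 (-0.37). In GFAPCre against GFAPCreNeg, C1ql3, which encodes a secreted synaptic organiser, was the 1 partner of 9 that was higher (0.68), and Gria2 the 1 other receptor gene of 10 that was lower (-0.38). In C57bl6J against GFAPCre, Neto2 was higher (0.56) of 10 partners, and Gria3 (-0.45) and Gria2 (-0.40) were lower of 11 other receptor genes.

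The SP1 groups differed from Syn1Cre in 4 members at P28 and in all 5 at P10, in opposite directions. The labels give no age for Syn1Cre, so SP1, age and sequencing pool cannot be told apart here. At P28, Grik5 was 3.16-fold higher (1.66, SE 0.19, adjusted p = 5.36e-08). Grik1 was lower (-1.52, SE 0.18, adjusted p = 1.59e-07), as were Grik2 (-1.31, SE 0.16, adjusted p = 1.81e-07) and Grik4 (-0.61, SE 0.18, adjusted p = 0.00716), while Grik3 did not pass (-0.33, adjusted p = 0.0817). Here 50.8% of 12301 loci passed, 25.8% higher and 25% lower, so that a call alone sets a member little apart from other loci. Grik5 stood at the 92.6th percentile of the log2 fold changes of all tested loci and Grik1 at the 3.42nd.

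At P10, Grik5 was 3.99-fold higher (1.99, SE 0.25, adjusted p = 3.64e-07). The other 4 were lower: Grik1 by -1.58 (SE 0.24, adjusted p = 6.79e-06), Grik2 by -1.29 (SE 0.18, adjusted p = 2.28e-06), Grik4 by -0.86 (SE 0.24, adjusted p = 0.00617) and Grik3 by -0.66 (SE 0.23, adjusted p = 0.0214). Of 12933 loci 40.6% passed, 19.5% higher and 21.1% lower. Animals of SP1 and Syn1Cre did not overlap for Grik1, Grik2 or Grik5 at either age, but they did for Grik3 and Grik4. How many of all loci lack overlap here was not counted, so this sets no member apart from other loci. Between the ages no member passed, where 10.9% of 3562 loci did (6.68% higher, 4.18% lower), with log2 fold changes from -0.30 for Grik5 to 0.35 for Grik3.

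Cell type markers moved in both SP1 comparisons as well. Excitatory neuron markers were lower in 5 of 8 genes and higher in 1 at each age, with a summed level of 1487 to 1653 IPM at P28 and 1805 to 2073 at P10 against 2122 to 2680 in Syn1Cre. Interneuron markers were higher in 7 and lower in 2 of 11 genes at P10, where they summed to 2441 to 3042 IPM against 1537 to 1885, and higher in 1 and lower in 2 at P28 (1596 to 2175). Astrocyte markers were higher in 1 of 11 genes at P28 (1404 to 2971 IPM) and lower in 2 at P10 (1269 to 1526), against 899 to 2800 in Syn1Cre. With total insertions as the scale, 6 astrocyte and 5 interneuron genes were higher at P28, and at P10 8 interneuron genes were higher and 0 interneuron or astrocyte genes lower. Excitatory neuron genes were then lower in 4 and higher in 2 of 8 at each age. The part of these markers in the members' differences was not tested.

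The scaling matters in these comparisons. With total insertions in place of TMM, the median of all loci moved from -0.06 to 0.42 at P28 and from -0.28 to 0.27 at P10, and 80.4% and 76.1% of the passing loci were higher in place of 50.8% and 48.1%. Grik1 stayed lower (-1.05 at P28 and -1.03 at P10), as did Grik2 (-0.83 and -0.73), and Grik5 stayed higher (2.13 and 2.54). Grik4 lost its call at both ages (-0.14, adjusted p = 0.541, and -0.31, adjusted p = 0.364), Grik3 lost it at P10 (-0.12, adjusted p = 0.747) and had the opposite sign at P28 (0.13, adjusted p = 0.522). On the gene bodies alone Grik4 was also lost, at P28 (-0.22, adjusted p = 0.366) and at P10 (-0.40, adjusted p = 0.282), and with each position counted once Grik3 was lost at P10 (-0.57, adjusted p = 0.0899). Single animals also decided calls. Grik4 was lost at P28 without replicate 1 of SP1 (adjusted p = 0.051) and at P10 without replicate 3 (0.0529), and Grik3 was lost at P10 without replicate 1 (0.103). Grik3 at P28 was called lower without Syn1Cre replicate 5 (0.0456) or SP1 replicate 3 (0.048). Between P28 and P10, total scaling made 44.4% of the passing loci higher in place of 61.5%.

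**Figure D3:**
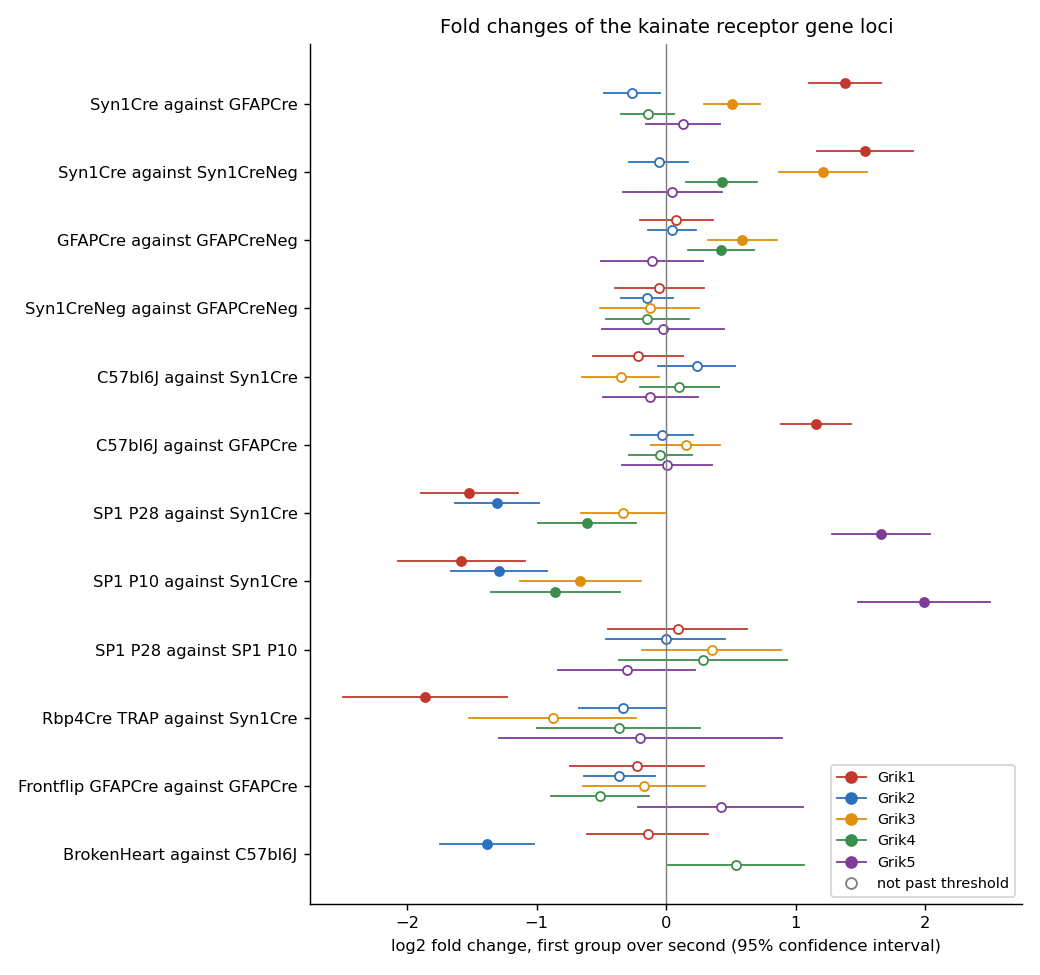
Log2 fold changes of the 5 loci (x axis, first group over second, with 95% confidence intervals from the edgeR fit) in 12 comparisons (y axis); filled points passed an adjusted p of 0.05 and open points did not. Grik1 lies to the right in Syn1Cre and C57bl6J against GFAPCre (1.38 and 1.16), and Grik5 lies to the right of the other members in both SP1 comparisons (1.66 and 1.99).

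The neighbours in the glutamate receptor families also differed between SP1 and Syn1Cre. In these fits 25.8% of all loci tested were higher and 25% lower at P28, and 19.5% were higher and 21.1% lower at P10. At P28, 6 of 9 tested partners were lower, among them Neto2 (-1.87), C1ql3 (-1.59) and Dlg1 (-1.50), and Dlg4 was higher (1.20). Of 12 other receptor genes 10 were lower, led by Gria4 (-1.66) and Grin2a (-1.59), and Grin3b was higher (2.89), with 167 IPM against 14.7. At P10, 5 of 10 partners were lower, among them Neto2 (-2.35), Dlg1 (-1.56) and Nrxn3 (-1.50), and Dlg4 higher (0.94), and of 11 other receptor genes 10 were lower, led by Grin1 (-3.49) and Grin2b (-2.64), and Grin3b was higher (3.55). With total insertions as the scale, 5 partners and 8 other receptor genes were lower at P28, and 3 and 10 at P10, while Dlg4 and Grin3b stayed higher at both ages. Between P28 and P10, 5 of 10 other receptor genes were higher at P28, Grin2b (1.46), Grid1 (1.08), Gria3 (1.06), Grin2a (1.04) and Gria2 (0.95), where 0 of 5 members and 0 of 6 partners passed, and Grin2a did not pass with total insertions as the scale. These differences between lists were not tested.

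Where in the Grik5 locus the SP1 insertions lay was resolved by region. The locus is short (85.8 kb) and holds the gene Zfp574, at 25075674 to 25083492, which overlaps the Grik5 body by 21 bases. In the flank of lower coordinate, beyond the end of the gene, SP1 animals at P28 had 67.5 to 125 IPM (103 ± 24.7, n = 4), those at P10 57.6 to 189 (119 ± 66.0, n = 3) and Syn1Cre 16.9 to 25.2 (21.1 ± 3.00, n = 6). In the flank with Zfp574 they had 22.5 to 64.2 (47.7 ± 19.1) and 34.5 to 100.3 (76.4 ± 36.4), against 0 to 3.99 in Syn1Cre (1.63 ± 1.40). Of the groups without SP1, only BrokenHeart overlapped both SP1 ranges there, with 17.16 to 47.05 from 7 insertions (n = 3). A higher level in this flank was thus not particular to SP1. BrokenHeart held 0 insertions in the flank of lower coordinate. In the body, P28 had 30.2 to 48.6 (36.7 ± 8.46), P10 21.0 to 46.1 (33.5 ± 12.5) and Syn1Cre 12.5 to 22.6 (17.5 ± 3.27).

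The flanks thus carried most of the difference, and the body ranges of P10 and Syn1Cre overlapped. Fitted on gene bodies alone, Grik5 remained higher at P28 (0.86, adjusted p = 0.0156) and not at P10 (0.80, adjusted p = 0.246). The 2 windows of 50 kb at Grik5 were both higher at P28, 25000001 to 25050000 (1.80, adjusted p = 3.56e-07) and 25050001 to 25100000 (1.94, adjusted p = 1.73e-06), where 39% of 20635 windows passed and 20.2% were higher. In the same fit 9 of 13 tested windows in Grik2, 3 of 6 in Grik1 and 1 of 3 in Grik3 were lower, where 18.8% of all windows tested were. In Grik4 1 of 4 was higher, 42850001 to 42900000 (1.14, adjusted p = 0.00192), with 40.8 ± 10.9 IPM against 19.3 ± 3.82, although the Grik4 locus as a whole was lower. Those tested were 13 of 15 windows in Grik2, 6 of 9 in Grik1, 3 of 6 in Grik3 and 4 of 9 in Grik4. Here too a window can reach the minimum count through Syn1Cre alone, so these shares carry no support.

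**Figure D4:**
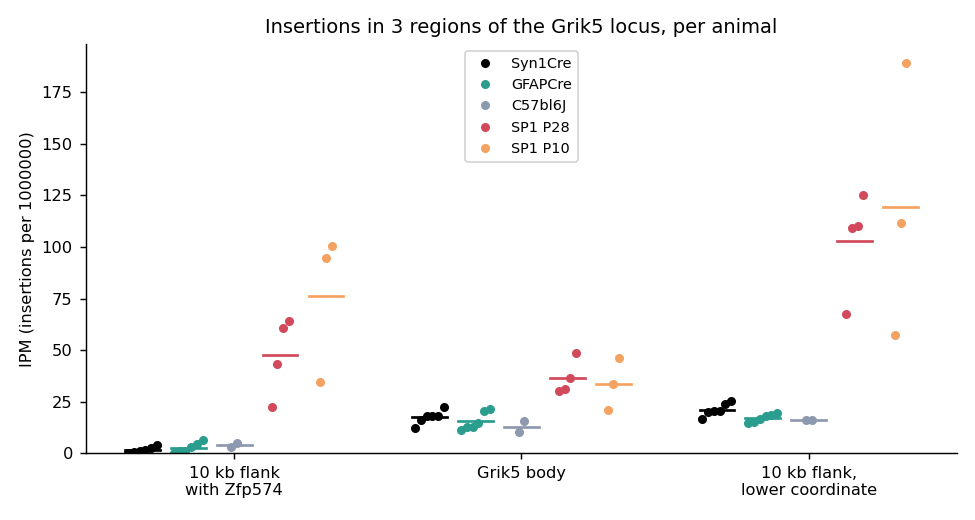
IPM (y axis, linear, from 0) in the flank with Zfp574, the Grik5 body and the flank of lower coordinate (x axis), with 1 point per animal and a line at each group mean for Syn1Cre, GFAPCre, C57bl6J and SP1 at P28 and P10. SP1 animals exceed the other groups drawn in both flanks (22.5 or more against at most 6.50, and 57.6 or more against at most 25.2). In the body they reach down to 21.0 against at most 22.6. BrokenHeart, which is not drawn, held 17.16 to 47.05 in the flank with Zfp574 and overlapped SP1 there.

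A few positions held much of the Grik5 signal. Over the brain groups 964 insertions fell on 111 positions, and the top 10 positions held 70.9% of them, against 8.97% in Grik1, 9.71% in Grik2, 23.0% in Grik3 and 19.3% in Grik4. The 3 most used positions, 25008644, 25008928 and 25009530, lie 0.319 to 1.21 kb beyond the end of the Grik5 body and were hit in Syn1Cre (43, 21 and 30 insertions, in 6 of 6 animals each) and in SP1 at P28 (13, 36 and 32, in 4 of 4 animals each). The fourth, 25073940, lies 1.57 kb before the listed Grik5 start and was hit in 34 animals. The fifth, 25077030, lies inside Zfp574, 1.36 kb from its end nearest to Grik5 and 4.66 kb before the Grik5 start.

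That last position took 34 insertions in 4 of 4 SP1 animals at P28 and 18 in 3 of 3 at P10, but 0 in Syn1Cre, GFAPCre, GFAPCreNeg, C57bl6J, Rbp4Cre_TRAP and BrokenHeart, 1 in Syn1CreNeg and 2 in Frontflip_GFAPCre. Of its insertions, 98.2% were on the minus strand. It was singled out after its values were seen and carries no test. Without it, Grik5 held 144.6 ± 28.4 IPM in SP1 at P28 (SD, n = 4) and 164 ± 58.4 at P10 (n = 3), still above the 33.7 to 51.8 of Syn1Cre.

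Close to the listed starts, within 2 kb on each side, counts were small. Grik5 held 8.66 to 27.5 IPM in SP1 at P28 (18.4 ± 9.00, n = 4) and 10.5 to 34.5 at P10 (22.4 ± 12.03, n = 3), against 1.19 to 3.99 in Syn1Cre (2.43 ± 1.08, n = 6), with no overlap. Grik3 held 17.3 to 24.3 at P28 (20.4 ± 3.18) against 2.39 to 7.33 in Syn1Cre (5.14 ± 2.15), again with no overlap, and 0 to 52.4 at P10. Both starts fell below the minimum count for the test. Grik4 held 0 to 4.31 at P28 and 0 to 2.24 in Syn1Cre. The part of GC boxes in the values at the starts was not tested.

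Grik2 had similar IPM values at its start, 30.8 ± 15.5 at P28, 25.7 ± 12.7 at P10 and 26.1 ± 6.60 in Syn1Cre. The fit called the Grik2 start lower in SP1 at P28 (-1.25, adjusted p = 0.000148, where 62.8% of 2434 starts passed) and at P10 (-1.63, adjusted p = 0.00211, where 63.3% of 2719 did). With total insertions as the scale these became 0.14 (adjusted p = 0.693) and 0.04 (adjusted p = 0.953), so no direction is given for the Grik2 start. In Syn1Cre against GFAPCre, where 1.49% of 2007 starts passed, it did not (0.38, adjusted p = 0.297).

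In the forebrain TRAP libraries of the Rbp4 line, 1 member differed from Syn1Cre, and 2.08% of 10813 loci passed, 1.91% as lower. Grik1 was lower (-1.87, SE 0.31, adjusted p = 4.22e-04), a ratio of 0.274. Grik3 had -0.88 (adjusted p = 0.137) although its 4 animals lay below all 6 Syn1Cre animals, and Grik2, Grik4 and Grik5 had -0.34, -0.37 and -0.20 with adjusted p of 0.324 or more. The median of all loci was -0.32, and -0.07 with total insertions as the scale, when 42.6% of the passing loci were higher in place of 8.44%. Interneuron markers were lower here in 8 of 11 genes, with a summed level of 59.6 to 299.5 IPM against 1537 to 1885. Dlx2, Dlx5, Gad1, Lhx6, Sp9 and Maf were at 0 in every one of the 4 animals, whose tables hold only 24408 to 57014 insertions. Excitatory neuron markers summed to 3122 to 4138 IPM against 2122 to 2680 in Syn1Cre, and astrocyte markers to 358 to 819 against 899 to 2800. The part of these markers in the Grik1 value was not tested. Tissue, Cre line, purification and sequencing pool differ together between these groups and cannot be told apart. Of 9 partners Neto1 (-1.14) and Grip1 (-0.76) were lower, and of 11 other receptor genes 4 were lower, Gria4 (-1.72), Grin3a (-1.32), Gria1 (-1.004) and Gria3 (-0.88). With total insertions as the scale only Gria4 of these 6 genes passed.

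With the Frontflip construct no member differed from GFAPCre, where 1.67% of 10472 loci passed, 0.286% as lower. Grik2 had -0.36 (adjusted p = 0.177) and Grik4 -0.51 (adjusted p = 0.171), each with 3 Frontflip animals below all 6 GFAPCre animals, and Grik1, Grik3 and Grik5 had -0.23, -0.17 and 0.42 with adjusted p of 0.591 or more. The 95% interval for Grik1 ran from -0.74 to 0.29. Of 9 tested partners 0 passed.

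Read from DNA in BrokenHeart rather than from RNA in C57bl6J, Grik2 was lower (-1.39, SE 0.18, adjusted p = 2.66e-07, a ratio of 0.382), where 39.8% of 1882 loci passed and 21.7% were lower. Grik1 had -0.14 (adjusted p = 0.648) and Grik4 0.54 (adjusted p = 0.0933). Grik4 passed with total insertions as the scale (0.63, adjusted p = 0.0492) and on the body alone (0.92, adjusted p = 0.014). Grik3 and Grik5 held too few insertions to be tested, 20 and 11 in BrokenHeart. Of 5 partners Neto1 (-1.33), Dlg1 (-1.16) and Grip1 (-0.74) were lower. Of 9 other receptor genes 3 were lower, among them Gria2 (-1.55) and Gria4 (-1.15), and Grid1 was higher (0.73). Among cell type markers, 7 of 7 tested excitatory neuron genes were lower (median -1.24; 1098 to 1385 IPM summed in BrokenHeart and 2306 to 2503 in C57bl6J). Of 4 tested interneuron genes 3 were lower and 1 higher (591 to 659 against 1383 to 1398), and of 4 tested astrocyte genes 2 were higher (1212 to 1741 against 804 to 862). Their part in the Grik2 difference was not tested. The read-out, the transposon and the sequencing pool differ together in this comparison and cannot be told apart.

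Insertions repeated at the same TTAA in many animals. Grik2 had 16782 insertions at 3284 positions over the brain groups, and its most used sites lay 7.14 and 7.08 kb after the listed start (262 and 243 insertions, in 40 and 36 animals). Grik1 had 3767 at 1209 positions, led by 88094486 with 83 insertions in 28 animals. Grik3 had 2120 at 381 positions, led by 1 site 19.2 kb after the start with 107. Grik4 had 2971 at 710 positions, and its most used site lay 2.67 kb beyond the end of the body (101 insertions), followed by 1 lying 47.1 kb after the start (88).

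The strand of insertion was unequal in some members. Over the 43 brain tables with at least 10000 insertions, the plus strand held 49.8% to 50.3% of all insertions. In Grik1 it held 20.9% to 26.7% in the Syn1Cre animals (mean 24.1% ± 1.85, n = 6), 29.3% and 29.9% in C57bl6J and 26.0% to 46.99% in GFAPCre (39.3% ± 7.76, n = 6). Counting each position once, the share was 35.02% in Syn1Cre and 41.0% in GFAPCre. In Grik3, listed on the plus strand, it held 66.7% to 79.5% in Syn1Cre and 62.2% to 81.2% in GFAPCre. In Grik2 and Grik4, both listed on the minus strand, Syn1Cre animals ranged from 48.1% to 55.6% and from 45.5% to 53.6%. In Grik5, also listed on the minus strand, the plus strand held 63.6% to 82.9% in the 5 Syn1Cre animals with at least 20 insertions there and 60.9% to 81.8% in GFAPCre. The strand that held more insertions thus did not follow the listed gene strand in every member. In BrokenHeart, read from DNA, 48.8% of the 43 Grik1 insertions were on the plus strand.

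The loci most like each member were found over the group means of 10 brain groups, among 9425 loci, as Pearson's r of log2 levels. The 10 points share libraries and differ widely in depth, and r is a description. For Grik1 they were Tph2 (0.89), Cracr2a (0.88) and Shisa6 (0.87), for Grik2 Robo2 (0.99) and Scn1a (0.96), and for Grik3 Ankdd1a (0.91), Armh3 (0.88) and Hmcn2 (0.87). For Grik4 they were Pcnx2 (0.96), Snap91 (0.95) and Neb (0.93), and for Grik5 Atxn7l3, Tmub2 and Psen2 (0.99 each). Between members r ran from -0.71 for Grik2 with Grik5 to 0.66 for Grik1 with Grik3.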

How the data were processed

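The series holds 194 GEO samples combined by the authors into 47 tables, for 46 animals and the N2a line. Each table lists 1 insertion per line with position, strand and raw read counts, as deposited by the authors. Novoalign, Bowtie2 and the build mm10 (GRCm38) are named in the submitters' processing notes; filters are not given in the sources used here. BrokenHeart positions were shifted by -1 to match the other tables. Insertions (lines), not reads, were counted over each gene body with 10 kb on each side, in 50 kb windows and within 2 kb of listed starts. Neighbouring loci can share insertions, and exons, introns and transcripts were not annotated here. Intervals are 95% exact Poisson, and 3 insertions bound a count of 0. Both cover counting error only. Groups came from the labels, the animal was the replicate, and a shared replicate number did not pair animals: the correlation of deviations from the group means ran from -0.22 to 0.17 in Syn1Cre against GFAPCre, and no comparison had every pair over 0.1.

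Counts were tested with edgeR 4.0.16 in R 4.3.3 (quasi-likelihood test, TMM, its filter on low counts, 2 groups per model, Benjamini-Hochberg adjustment over all features tested). On simulated counts with 200 loci changed 3-fold, it recovered 86.5% in Syn1Cre against GFAPCre, 89.5% in SP1 at P28, 49.5% at P10 and 31.5% in Rbp4Cre_TRAP against Syn1Cre. In that order, 3.35%, 6.28%, 4.81% and 11.3% of the simulated calls were false. The false share was 7.46% in C57bl6J against Syn1Cre and 6.47% in Syn1Cre against Syn1CreNeg. These figures do not cover changes smaller than 3-fold. Alternatives were total insertions as the scale, DESeq2 1.42.0, no filter, the body alone, each position counted once, blocks, and leaving out each animal. Other genes were named only from the list of partners and that of other glutamate receptors, those past the threshold, at most 4 per list and comparison by size, except where a count of 5 or fewer is spelt out, and, for likeness, the 3 most similar loci with at least 20 IPM. The members and lists were chosen with earlier results of these data known. Some results on other genes are not reported here.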

Additional observations from a re-analysis of the deposited data

Results flagged for a closer look

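Among 30 sets of animals examined for a value far from the rest, 1 was found, and chance gives about 1 in 20. Grik4 in GFAPCreNeg replicate 6 held 48.1 IPM, against 113 to 140.6 in the other 5 animals. That animal also had the highest astrocyte list (4340 IPM) and the lowest depth (208057 insertions) of its group. The part of these in its Grik4 value was not tested.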

How the results depend on the processing

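Of 919 refits of a member's fold change, 870 kept their direction and 840 kept both direction and side of the threshold. Of those that changed sign, 47 were past the threshold in neither fit. Grik1 in Syn1Cre against GFAPCre kept its call in all 12 fits that left out 1 animal and in 7 others, between 1.19 and 1.45. The Grik2 start in SP1 turned to 0.14 at P28 and 0.044 at P10 with total insertions as the scale; the cause was not tested. Counts of passing loci moved more. In Syn1Cre against GFAPCre they were 139 with distinct positions, 1640 with only Syn1Cre replicates 1 to 3 and 131 to 849 leaving out 1 animal; 1 member passed with distinct positions. Against Syn1CreNeg they were 1762 with distinct positions. In GFAPCre against GFAPCreNeg they were 471 with distinct positions, 35 in shared pools and 408 to 1118 leaving out 1 animal, with 1 and 0 members passing under the first pair and 1 to 2 under the last. Between the Cre-negative groups they were 10 with distinct positions, DESeq2 or the body alone, 32 without the filter, and 1 to 327 leaving out 1 animal (327 without GFAPCreNeg replicate 6). In C57bl6J against Syn1Cre they were 54 with total insertions, 62 with DESeq2 and 2 to 257 leaving out 1 animal, and against GFAPCre 958 with distinct positions, 698 with DESeq2 and 487 to 2134. In SP1 at P28 they were 3803 with distinct positions and 2895 with the body alone, and at P10 2362 with the body alone, where 3 members passed, as with total insertions. Between P28 and P10 they were 187, 171 and 194 with distinct positions, DESeq2 and the body alone, and 7 to 538 leaving out 1 animal. In Rbp4Cre_TRAP they were 129 with total insertions, 587 with distinct positions, 766 without the filter, 135 with the body alone and 84 to 491 leaving out 1 animal; in Frontflip_GFAPCre 304, 317 and 92 for distinct positions, no filter and the body alone, and 17 to 400; in BrokenHeart 1314 without the filter and 353 to 894, with 2 members for total insertions and for the body alone. With distinct positions, 327 windows passed in Syn1Cre against GFAPCre and 2919 against Syn1CreNeg. Passing starts were 18 with total insertions and 2 with distinct positions in Syn1Cre against GFAPCre, 2763 and 141 in SP1 at P28, and 358 with distinct positions at P10. The number of members among passing starts became 0 with distinct positions at both ages and with total insertions at P10.

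With the replicate number as a block, 0 loci passed between the Cre-negative groups, 1073 in C57bl6J against Syn1Cre, 121 in Rbp4Cre_TRAP, 296 in Frontflip_GFAPCre and 305 in BrokenHeart. In C57bl6J against Syn1Cre the replicate block called 2 members, Grik2 (0.49, adjusted p = 1.28e-07) and Grik3 (-0.44, adjusted p = 0.0242), and it changed no other member's call. The numbers did not pair the animals. Low depth limits Rbp4Cre_TRAP, BrokenHeart, the Frontflip animals and SP1 at P10 most.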
